A study of Mus musculus with 35 samples.

Results

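The data described here are the levels of 10 genes that mark dividing cells or newborn neurons in the mouse hippocampus after pilocarpine-induced status epilepticus (SE). The genes were chosen by name. Cdk1, Ccna2, Ccnb1, Top2a and Mki67 belong to the cell cycle, and Eomes, Neurod1, Dcx, Sox11 and Igfbpl1 belong to the neuronal lineage. All 10 were found among the 43629 gene identifiers of the mRNA count table, and their levels were followed through 19 libraries.

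C57BL/6J mice of both sexes, 6 to 7 weeks old, received scopolamine and then intraperitoneal pilocarpine, starting at 350 mg/kg, or saline vehicle. Further pilocarpine was given until seizures reached the stage set in the protocol. RNA came from the left hippocampus, as 2 control and 3 SE libraries at 1 h, 3 control and 2 SE libraries at 8 h, 3 SE libraries at 36 h and 3 at 120 h. A single set of 3 controls served both late times. Their source names say 36-120 h and their sample titles say t0, so the time at which they were taken is not clear from the labels. Each library was treated as 1 mouse, and p-values measure the spread between these libraries. Whole tissue was sequenced, so fewer cells of a type and less RNA per cell cannot be told apart.

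In the adult dentate gyrus, radial glia-like stem cells divide slowly and give rise to intermediate progenitors, which divide several times and become neuroblasts and then granule neurons. Eomes (Tbr2) is the transcription factor of the intermediate progenitors, and Neurod1 is the transcription factor that carries the lineage from there into immature neurons. Dcx (doublecortin) binds the microtubules of migrating neuroblasts, Sox11 is a transcription factor of immature neurons, and Igfbpl1 is a secreted protein of the same cells. Mki67 encodes the Ki-67 protein that coats mitotic chromosomes, Top2a the topoisomerase that untangles replicated DNA, Cdk1 the kinase that starts mitosis, and Ccna2 and Ccnb1 the cyclins that bind it. Seizures are known to increase cell division in this niche in rodents some days after the event.

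Promoter sequence was not used to choose the genes. Genes that peak in G2 and mitosis often carry CCAAT boxes and a cell cycle genes homology region (CHR) close to their start, as is known from promoter work on this class. The RefSeq windows of 300 bases (GRCm38.p6) held 8 of the 10 genes, and Ccna2 and Igfbpl1 had none. Each window matched the NCBIM37 genome of the counts exactly, on the strand of its gene. The 250 bases before the start are printed 5′ to 3′ for 6 genes. They show that the letters searched do not fully divide the cell cycle genes from the lineage genes. Mki67, Top2a, Cdk1 and the lineage gene Sox11 hold CCAAT and letters searched for the CHR. Of the letters searched, the cell cycle gene Ccnb1 and the lineage gene Dcx hold CCAAT alone. In NCBIM37 they lie at chr7:142908063-142908312 for Mki67, chr11:98885504-98885753 for Top2a, chr10:68815661-68815910 for Cdk1, chr13:101556442-101556691 for Ccnb1, chr12:28027584-28027833 for Sox11 and chrX:140367763-140368012 for Dcx, all on the minus strand. Capitals mark CCAAT on either strand and the letters searched for the CHR on either strand, which are TTTGAA in a first form and TTCGAA in a second. Other forms of the CHR were not searched, so a window without capitals for it may still hold one.
Mki67: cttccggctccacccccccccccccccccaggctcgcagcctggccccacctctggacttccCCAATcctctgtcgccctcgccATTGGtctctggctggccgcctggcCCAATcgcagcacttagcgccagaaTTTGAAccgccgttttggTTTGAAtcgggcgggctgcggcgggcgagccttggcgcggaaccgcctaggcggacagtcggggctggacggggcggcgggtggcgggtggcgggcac
Top2a: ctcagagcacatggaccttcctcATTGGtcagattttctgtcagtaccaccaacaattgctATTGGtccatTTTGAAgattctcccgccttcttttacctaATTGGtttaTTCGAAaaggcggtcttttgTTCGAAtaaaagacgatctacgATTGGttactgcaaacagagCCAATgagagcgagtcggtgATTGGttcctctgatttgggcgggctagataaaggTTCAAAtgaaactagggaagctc
Cdk1: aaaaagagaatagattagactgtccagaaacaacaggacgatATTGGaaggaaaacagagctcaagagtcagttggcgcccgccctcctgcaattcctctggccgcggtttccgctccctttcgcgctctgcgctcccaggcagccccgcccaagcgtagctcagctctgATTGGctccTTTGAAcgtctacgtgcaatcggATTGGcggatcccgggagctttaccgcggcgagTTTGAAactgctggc
Ccnb1: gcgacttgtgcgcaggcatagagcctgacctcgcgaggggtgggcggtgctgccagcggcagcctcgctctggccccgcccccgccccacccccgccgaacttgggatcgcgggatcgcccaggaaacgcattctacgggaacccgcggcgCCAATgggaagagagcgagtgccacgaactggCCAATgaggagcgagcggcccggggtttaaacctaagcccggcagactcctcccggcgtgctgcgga
Sox11: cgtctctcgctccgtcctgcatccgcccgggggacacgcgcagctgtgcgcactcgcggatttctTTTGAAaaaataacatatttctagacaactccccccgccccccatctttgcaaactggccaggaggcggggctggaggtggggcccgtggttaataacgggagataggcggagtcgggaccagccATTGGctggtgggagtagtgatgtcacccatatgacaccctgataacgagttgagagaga
Dcx: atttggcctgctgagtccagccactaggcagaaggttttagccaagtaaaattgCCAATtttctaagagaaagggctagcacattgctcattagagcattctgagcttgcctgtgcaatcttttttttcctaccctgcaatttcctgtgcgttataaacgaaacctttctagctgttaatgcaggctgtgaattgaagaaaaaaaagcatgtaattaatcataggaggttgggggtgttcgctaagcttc

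Of the 8 genes with a window, 7 held CCAAT on either strand, against 37.4% of all 32851 windows. Top2a held 6 copies, between positions -227 and -58 from the start, Mki67 and Cdk1 held 3 each, Ccnb1 and Eomes held 2 each, and Sox11 and the printed Dcx window held 1 each. TTTGAA stood in 4 of the 8 (Mki67, Top2a, Cdk1 and Sox11), against 17.9% of all windows, and TTCGAA in Top2a alone, against 1.56%. In Cdk1 the TTTGAA nearest the start lay at -15. Neurod1 held none of these letters, and CAGATG, an E-box that basic helix-loop-helix factors such as Neurod1 bind, was in 0 of the 8 windows and in 17.2% of all. No match overlapped another. These are letters in a window, not sites shown to be bound.

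**Figure D1:**
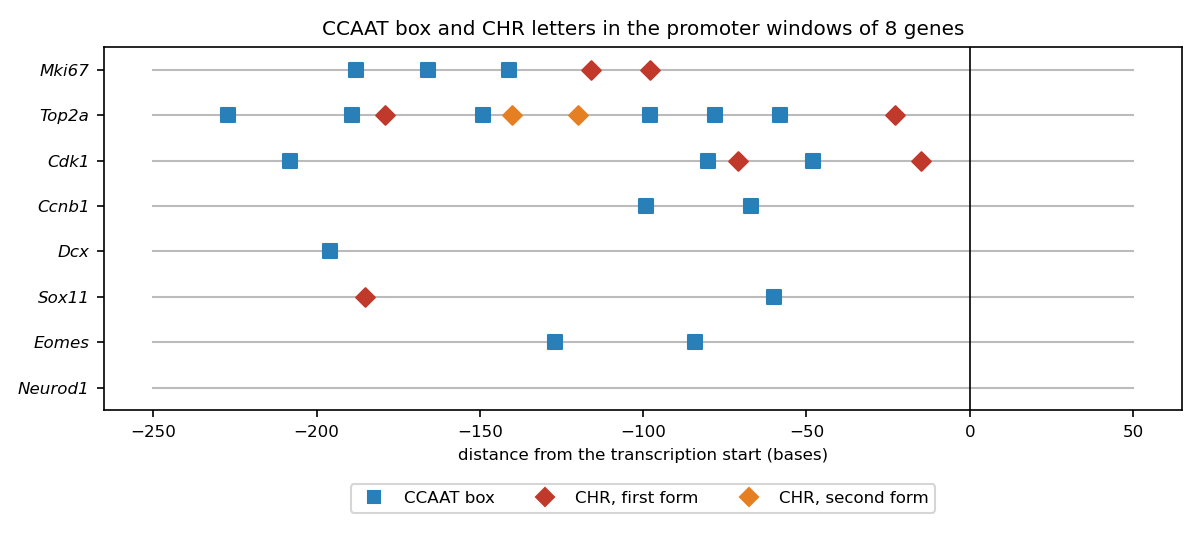
Positions of CCAAT box letters (squares) and of the 2 CHR forms (diamonds) in the promoter windows of 8 genes, with the distance from the transcription start in bases on the horizontal axis. The grey lines span the 300 bases searched, matches on either strand are shown, and Top2a carries the most.

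The libraries held 8503816 to 28465548 counts. Levels are given as CPM, read counts scaled to the size of the library, after TMM scaling over the 19 libraries, and they were low for most of the 10 genes. In the 8 control libraries, Sox11 had the highest level per length, 12.7 ± 4.54 CPM per kb of exon (SD, n = 8), followed by Neurod1 with 9.45 ± 3.73 CPM per kb. These SDs span control sets that differ in level, and Sox11 lay above Neurod1 in each of the 8 control libraries. It had 16.3 against 14.0 CPM per kb in control 1 h replicate 1, and 7.33 against 4.44 in control 36-120 h replicate 3. Dcx (2.76 ± 0.832 CPM per kb) and Igfbpl1 (1.34 ± 0.659) came next. Sox11 is annotated as a single exon of 2013 bases. Ccna2 had 0.696 ± 0.208 CPM per kb, while Eomes, Mki67 and Top2a lay together at 0.318, 0.312 and 0.286 CPM per kb. Ccnb1 and Cdk1 were the lowest, at 0.131 and 0.126 CPM per kb, with 0 to 17 and 1 to 30 counts in a library.

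All 9 markers of hippocampal tissue were detected in all 19 libraries, and among them Camk2a, a kinase of excitatory neurons, reached at least 3254 CPM. Libraries also differed in ways the groups do not set. The choroid plexus score, the mean log2 CPM of 20 markers of that epithelium, ran from 4.95 to 5.91 at 1 h and from 2.89 to 5.29 at 8 h. Among the late libraries it was 5.09 and 5.07 in SE 36 h replicates 1 and 2 and 5.31 in SE 120 h replicate 3, and 0.15 to 0.70 in the other 6. Xist, the RNA of the inactive X chromosome, was at 585 CPM or more in 7 libraries and under 1 CPM in the other 12. It was high in control 36-120 h replicates 2 and 3 and in SE 120 h replicate 3, and listed at 0 in all 3 SE 36 h libraries. Batches are those named in the labels, 2 at 1 h (G369 and G511), 2 at 8 h (G317 and G511) and 1 at the late times (G545). In the list of blood cells, Cd3e of T cells was at 0 in 16 libraries and Ly6g of neutrophils at 0 in 18. Other genes of that list were present. Ptprc of leukocytes ran from 1.96 to 7.05 CPM, Hbb-b1 of red cells from 25.5 to 144 CPM, and S100a9 reached 8.51 CPM.

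Of the comparisons between SE and control, none put any of the 10 genes past an adjusted p of 0.05 in edgeR's quasi-likelihood test, fitted over the whole table. Few genes of any kind passed that test. The share called was 0.0799% at 1 h (0 of the 8 of these genes that passed the filter), 0% at 8 h (0 of 8), 0.0252% at 36 h (0 of 10) and 0.0563% at 120 h (0 of 10). At an unadjusted p under 0.05, the counts of these genes were 0, 1, 2 and 4, against 4.39%, 9.47%, 7.89% and 9.6% of all genes tested. The likelihood ratio test of edgeR and DESeq2 also gave 0 past an adjusted p of 0.05 at each time. Cdk1 and Ccnb1 were too low for the filter at 1 h and 8 h. The genes whose SE and control libraries did not overlap were also counted. With SE higher there were 0 of the 8 at 1 h and at 8 h, beside 9.91% and 14.6% of all genes, and 3 of 10 at 36 h (6%) and at 120 h (6.33%). With SE lower there were 1 of 8 at 1 h (8.55%), 2 of 8 at 8 h (13.4%), and 0 of 10 at 36 h (8.28%) and at 120 h (9.1%). A p that misses the threshold does not show that a gene stayed at its control level.

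The signs of the log2 fold changes were counted at each time. At 1 h, 3 of 8 had a positive log2 fold change and the median was -0.08, beside 49.5% positive and a median of -0.00 over all genes. At 8 h it was 4 of 8, beside 49.1% of all genes. At 36 h all 10 were positive with a median of 0.40, beside 51.7% and 0.01 over all genes. At 120 h all 10 were again positive with a median of 0.36, beside 53%. The 36 h and 120 h values share their 3 controls, so the counts are not independent. With the choroid plexus score in the model the counts were 5 of 8 at 1 h, 5 of 8 at 8 h, 7 of 10 at 36 h and 8 of 10 at 120 h, and with the batch in the model they were 3 of 8 at 1 h and 6 of 8 at 8 h. Without the choroid plexus-rich SE libraries, 7 of 10 were positive at 36 h, and in low-Xist libraries alone 8 of 10 were at both late times. The difference in these counts between times was not tested. The choroid plexus-poor setting left 1 SE library at 36 h and the low-Xist setting left 1 control at both late times, so each error given for them assumes that the lone library varies like the other group.

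**Figure D2:**
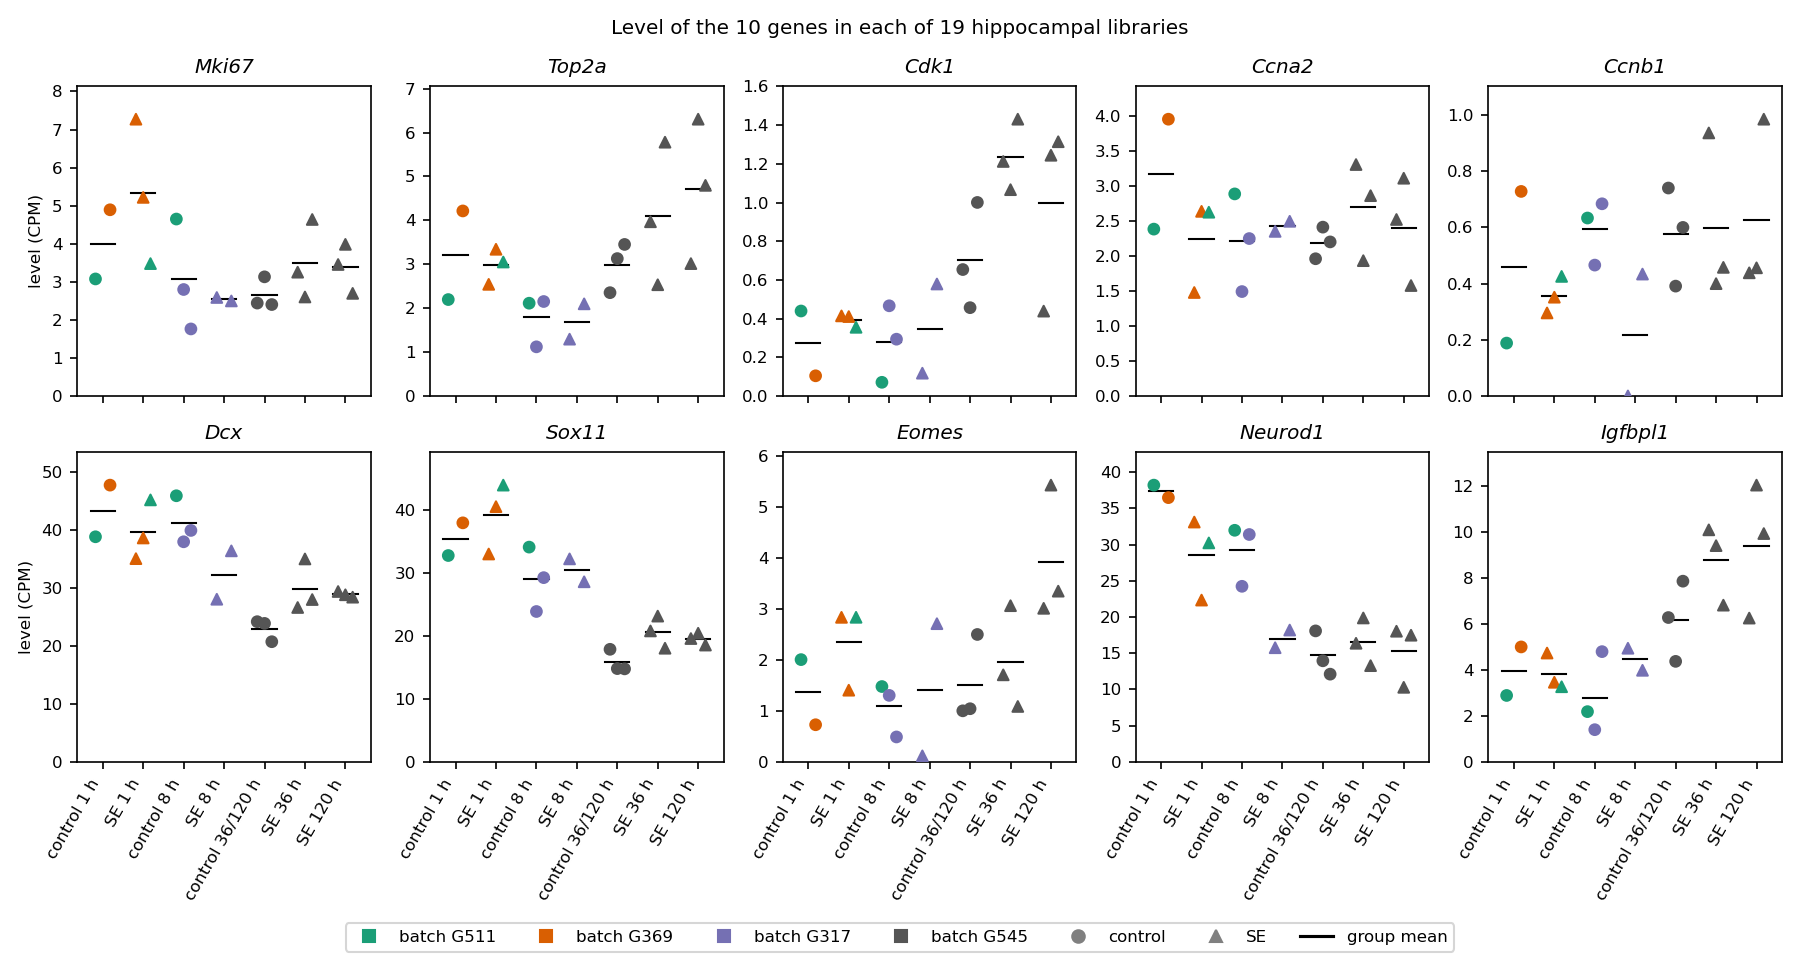
Level of each gene (CPM, linear axis from 0) in each library, by group, with circles for control, triangles for SE, colours for the batch in the labels and a line at the group mean. Dcx and Sox11 lie higher in all 3 SE libraries of 36 h and of 120 h than in their 3 controls, and Neurod1 lies lower in both SE libraries of 8 h than in all 3 controls.

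Among the lineage genes, Dcx had the smallest errors. In the 36-120 h controls it was at 24.2, 23.9 and 20.8 CPM. The SE libraries of 36 h had 26.7, 35.1 and 28.04 CPM, and those of 120 h had 29.4, 28.9 and 28.5 CPM. Every SE library thus lay above every control, and the 120 h libraries were close together (28.9 ± 0.491 CPM, SD, n = 3). The log2 fold change was 0.40 ± 0.12 (± standard error of the estimate, here and for every log2 fold change) at 36 h, with adjusted p = 0.438 in edgeR's quasi-likelihood test. At 120 h it was 0.34 ± 0.08, with adjusted p = 0.302 in the same test.

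Dcx is on the X chromosome, and Xist differed between these groups. The only low-Xist control (replicate 1) had 24.2 CPM of Dcx, below the 5 low-Xist SE libraries of 36 h and 120 h, which had 26.7 to 35.1 CPM. The high-Xist SE 120 h replicate 3, at 28.5 CPM, lay above both high-Xist controls. In low-Xist libraries alone, the log2 fold change was 0.32 ± 0.20 at 36 h and 0.27 ± 0.12 at 120 h. With the choroid plexus-poor libraries alone, it was 0.29 ± 0.14 at 36 h. Of the SE 36 h libraries, the choroid plexus-poor replicate 3 had 28.04 CPM, between the choroid plexus-rich replicates 1 (26.7 CPM) and 2 (35.1 CPM).

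The early times gave Dcx another sign. At 8 h the controls had 46.0, 38.03 and 39.99 CPM and the SE libraries 28.1 and 36.5 CPM. Both SE libraries were below all controls, which held for 13.4% of all genes at 8 h. SE against control gave a log2 fold change of -0.36 ± 0.19 (adjusted p = 0.579 in edgeR's quasi-likelihood test). At 1 h the groups overlapped, with 38.9 and 47.8 CPM in controls and 35.1, 38.7 and 45.3 CPM after SE. The SE effect on Dcx at 36 h exceeded that at 8 h by 0.73 ± 0.21 on the log2 scale in a fit of all 19 libraries (adjusted p = 0.153, edgeR's quasi-likelihood test). A difference of that kind had an unadjusted p under 0.05 in 14.1% of all genes and an adjusted p under 0.05 in 0.144%. None of the 10 genes had an unadjusted p under 0.05 for the 8 h effect against the 1 h effect, beside 12.3% of all genes (0.149% after adjustment).

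Sox11 followed Dcx at the late times. It was at 17.9, 14.8 and 14.8 CPM in the controls, at 20.8, 23.1 and 18.03 CPM at 36 h and at 19.6, 20.4 and 18.5 CPM at 120 h. All 6 SE libraries lay above all 3 controls. The log2 fold change was 0.40 ± 0.13 at 36 h (adjusted p = 0.473) and 0.31 ± 0.10 at 120 h (adjusted p = 0.414), both from edgeR's quasi-likelihood test. The 2 highest SE libraries, 36 h replicates 1 and 2, were those rich in choroid plexus RNA. With the choroid plexus-poor libraries alone, the 36 h value was 0.19 ± 0.17. In low-Xist libraries alone it was 0.23 ± 0.21 at 36 h and 0.16 ± 0.13 at 120 h.

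At 1 h and 8 h Sox11 differed little between groups. The 1 h controls had 32.7 and 37.9 CPM and the SE libraries 33.0, 40.5 and 43.9 CPM. The 8 h controls had 34.1, 23.9 and 29.2 CPM and the SE libraries 32.2 and 28.6 CPM. The groups overlapped at both times, and the log2 fold changes were 0.14 ± 0.16 and 0.05 ± 0.20.

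Of the 10 genes, Eomes had the largest log2 fold change at 120 h, from few counts. The controls held 1.00, 1.04 and 2.50 CPM, the 36 h SE libraries 1.71, 3.07 and 1.09 CPM, and the 120 h SE libraries 3.01, 5.43 and 3.35 CPM. All 3 SE libraries of 120 h were above all controls, while those of 36 h overlapped them. The log2 fold change at 120 h was 1.39 ± 0.39 (adjusted p = 0.352), and at 36 h it was 0.37 ± 0.48 (adjusted p = 0.892), in edgeR's quasi-likelihood test. Leaving out 1 library at a time gave 1.07 to 1.96 at 120 h, and control replicate 3 was the library that moved it most. With the choroid plexus score in the model the 120 h value was 1.49 ± 0.42, and in low-Xist libraries alone, against the single control replicate 1 with 1.00 CPM, it was 2.08 ± 0.51.

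The SE libraries of the late times can be set against each other without the controls. Eomes was higher at 120 h than at 36 h by 1.02 ± 0.40 on the log2 scale (adjusted p = 0.668, edgeR's quasi-likelihood test). Of the 9 genes tested in that comparison, 0 passed an adjusted p of 0.05 in this test, in the likelihood ratio test or in DESeq2, beside 0.0565% of all genes, and Eomes was the only 1 with an unadjusted p under 0.05, beside 7.23%. The other 8 lay between -0.31 (Cdk1) and 0.20 (Top2a). Of the 9, 3 were positive, beside 49.6% of all genes. The groups overlapped, since 36 h replicate 2 had 3.07 CPM and 120 h replicate 1 had 3.01 CPM. None of the 9 had groups apart, beside 7.61% of all genes with 120 h higher and 5.92% with 120 h lower.

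Eomes at the early times had 2.01 and 0.728 CPM in 1 h controls and 2.84, 1.41 and 2.84 CPM after SE. In the 8 h libraries it had 1.48, 1.30 and 0.489 CPM in controls and 0.118 and 2.71 CPM after SE. The 8 h SE libraries stood at opposite ends, at 1 and 75 counts, so the direction at that time depended on 1 library. Without SE replicate 2 the 8 h value was -3.13, and without SE replicate 1 it was 1.28.

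Neurod1 had the smallest p of the 10 genes at 8 h. There the controls had 32.0, 24.2 and 31.4 CPM and the SE libraries 15.8 and 18.2 CPM. Both SE libraries lay below all controls. The log2 fold change was -0.79 ± 0.21, with adjusted p = 0.471 in edgeR's quasi-likelihood test. Control replicate 1 belongs to batch G511 and the other 4 libraries to G317. With the batch as a covariate the value was -0.71 ± 0.19 with an adjusted p of 0.0316, and without control replicate 1 it was -0.71 ± 0.20 with an adjusted p of 0.0384, both from edgeR's quasi-likelihood test. In these 2 fits 7.54% and 7.72% of all genes were called lower, so Neurod1 passed along with many others. The score of choroid plexus was 4.99 and 4.96 in the SE libraries and 2.89, 5.29 and 3.6 in the controls. With the score as a covariate the value was -0.59 ± 0.25.

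Neurod1 at 1 h had 38.2 and 36.5 CPM in controls and 33.1, 22.3 and 30.2 CPM after SE. The groups did not overlap, which held in this direction for 8.55% of all genes. Its log2 fold change was -0.39 ± 0.18 (adjusted p = 0.999, edgeR's quasi-likelihood test). Within batch G511 the single SE library (30.2 CPM) was below the single control (38.2 CPM), and within G369 both SE libraries were below the control (36.5 CPM).

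At the late times Neurod1 overlapped between groups. The controls had 18.1, 14.0 and 12.1 CPM, the 36 h SE libraries 16.4, 19.9 and 13.3 CPM and the 120 h SE libraries 18.03, 10.3 and 17.5 CPM. The effect at 36 h exceeded that at 8 h by 0.94 ± 0.32 on the log2 scale (adjusted p = 0.21, edgeR's quasi-likelihood test on all 19 libraries). The controls themselves stood apart by set. Control Neurod1 ran from 24.2 to 38.2 CPM at 1 h and 8 h and from 12.1 to 18.1 CPM in the 36-120 h set, while Dcx ran from 38.03 to 47.8 and from 20.8 to 24.2 CPM. Batch and control set cannot be told apart here, and levels across times are given side by side only.

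Igfbpl1 was at 6.27, 4.37 and 7.85 CPM in the late controls, at 10.1, 9.40 and 6.81 CPM at 36 h and at 6.25, 12.0 and 9.92 CPM at 120 h. The groups overlapped at both times, and log2 fold changes were 0.52 ± 0.24 and 0.62 ± 0.27, with adjusted p of 0.646 and 0.528 in edgeR's quasi-likelihood test. At 36 h the 2 high libraries were again those rich in choroid plexus RNA, and with the poor libraries alone the value was 0.13 ± 0.30. At 1 h and 8 h Igfbpl1 ranged from 1.4 to 4.995 CPM. SE against control gave -0.05 ± 0.34 at 1 h and 0.66 ± 0.51 at 8 h, where the SE libraries had 4.94 and 3.98 CPM and the controls 2.18, 1.4 and 4.79 CPM, so the groups overlapped.

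**Figure D3:**
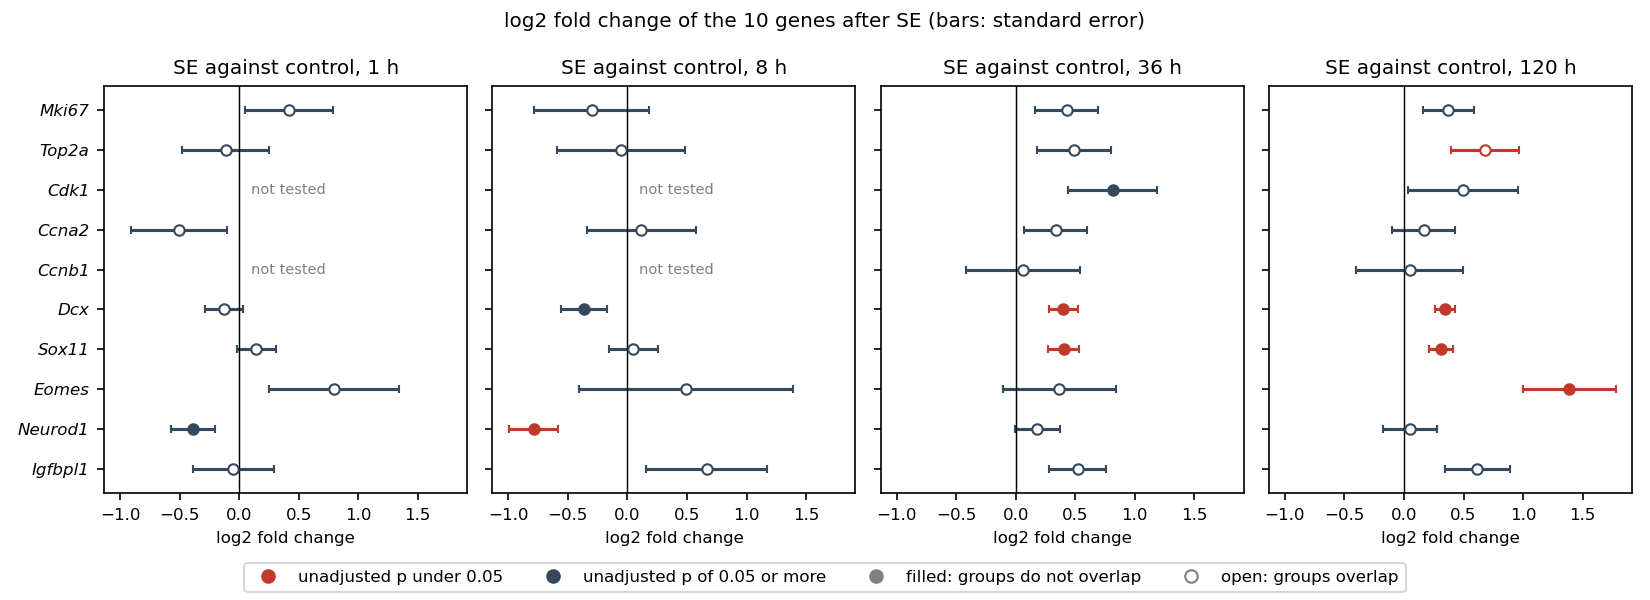
log2 fold change of SE against control (horizontal axis) for the 10 genes at each time, with the standard error as bars, red for an unadjusted p under 0.05 and filled points where the groups do not overlap. All 10 points lie right of 0 at 36 h and 120 h, which share their controls, and none of them passed an adjusted p of 0.05.

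The cell cycle genes had few counts, and their errors were wide. Top2a had 2.35, 3.13 and 3.45 CPM in the late controls, 3.97, 2.53 and 5.78 CPM at 36 h and 3.01, 6.30 and 4.80 CPM at 120 h. The groups overlapped at both times. The log2 fold change was 0.49 ± 0.31 at 36 h and 0.68 ± 0.29 at 120 h, with adjusted p of 0.744 and 0.492 in edgeR's quasi-likelihood test. Here the choroid plexus-poor SE 36 h replicate 3 was the highest of the 3, and with the poor libraries alone, which leave it as the single SE library, the 36 h value was 0.96. Without that library the 36 h value was 0.17 ± 0.28. The early Top2a groups overlapped too, at -0.11 ± 0.37 at 1 h and -0.06 ± 0.54 at 8 h.

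Cdk1 had 0.653, 0.456 and 1.00 CPM in the late controls and 1.21, 1.07 and 1.43 CPM at 36 h. Each 36 h SE library lay above each control. SE against control at 36 h gave a log2 fold change of 0.81 ± 0.38 (adjusted p = 0.654, edgeR's quasi-likelihood test). At 120 h the SE libraries had 0.438, 1.24 and 1.31 CPM and overlapped the controls, at 0.50 ± 0.47.

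Mki67 overlapped between groups at all times. It was at 2.44, 3.13 and 2.40 CPM in the late controls, 3.25, 2.60 and 4.64 CPM at 36 h and 3.45, 3.98 and 2.69 CPM at 120 h, with log2 fold changes of 0.43 ± 0.27 and 0.37 ± 0.22. At 1 h its SE libraries had 7.27, 5.22 and 3.48 CPM against 3.07 and 4.89 CPM in controls, and at 8 h 2.59 and 2.50 CPM against 4.65, 2.80 and 1.76 CPM. The lowest SE library and the lowest control of 1 h were those of batch G511.

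Of the 5 cell cycle genes, the cyclins had the smallest log2 fold changes at 36 h and 120 h. Ccna2 had 1.96, 2.41 and 2.201 CPM in the late controls, 3.31, 1.93 and 2.86 CPM at 36 h and 2.52, 3.11 and 1.58 CPM at 120 h, with log2 fold changes of 0.33 ± 0.27 and 0.17 ± 0.27. Ccnb1 had 0.741, 0.391 and 0.600 CPM in the controls, 0.937, 0.400 and 0.458 CPM at 36 h and 0.438, 0.456 and 0.986 CPM at 120 h, with 0.06 ± 0.48 and 0.05 ± 0.45. At 1 h and 8 h Ccna2 ranged from 1.48 to 3.95 CPM and its groups overlapped, with log2 fold changes of -0.50 ± 0.40 and 0.12 ± 0.46. The 5 cell cycle genes summed to 8.15 to 9.65 CPM in the late controls, 8.53 to 15.2 CPM at 36 h and 9.87 to 15.1 CPM at 120 h.

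**Figure D4:**
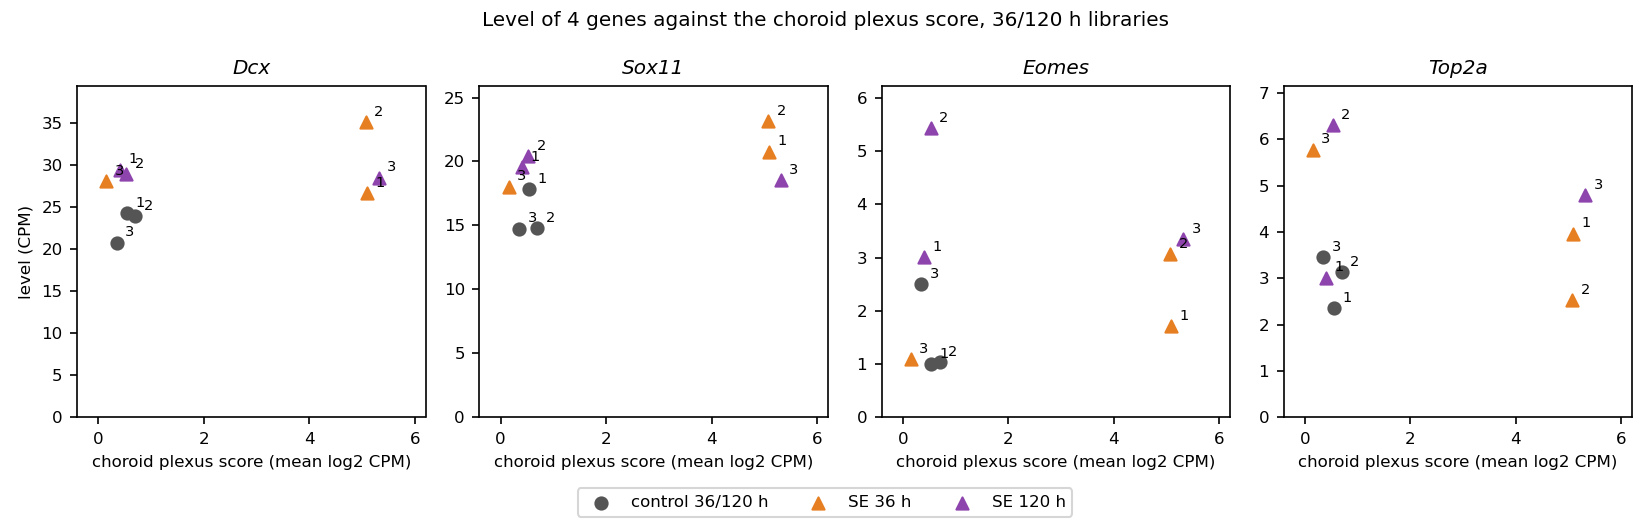
Level (CPM) of Dcx, Sox11, Eomes and Top2a against the choroid plexus score (mean log2 CPM of 20 markers) in the 9 libraries of the late times, numbered by replicate. SE libraries of either low or high score lie above the controls in Dcx, and the highest Top2a and Eomes values are in SE libraries of low score.

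Other genes of the same processes were taken from lists. Of 32 mitosis genes, 26 were tested at 36 h and 27 at 120 h, and 0 had an unadjusted p under 0.05 at either time in edgeR's quasi-likelihood test, beside 7.89% and 9.6% of all genes. Their groups did not overlap, with SE higher, for 5 of 26 at 36 h (6% of all genes) and 3 of 27 at 120 h (6.33%). At 36 h, 20 of the 26 were positive with a median of 0.28, and at 120 h 18 of 27 with 0.12. The smallest p at 36 h belonged to Cdc20, the activator of the anaphase-promoting complex, at 0.90 ± 0.40 (0.671 to 1.24 CPM on average, adjusted p = 0.638). Racgap1, a cytokinesis protein, was at 0.44 ± 0.21, and the kinase Plk1 at 120 h was at 0.45 ± 0.23.

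Among 29 genes of DNA replication the medians stayed near 0, at 0.03 for 27 tested at 36 h and 0.04 for 27 tested at 120 h. Cdc45, a part of the replicative helicase, had the smallest p of the list at both times. It averaged 1.31 CPM in the late controls, 2.64 CPM at 36 h (1.04 ± 0.28, adjusted p = 0.385) and 2.86 CPM at 120 h (1.15 ± 0.26, adjusted p = 0.273), in edgeR's quasi-likelihood test. Its groups did not overlap at either time. E2f2, a transcription factor of the G1/S step, had 0.79 ± 0.28 at 36 h (adjusted p = 0.52).

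The regulators of G1 had their largest values early. Of 17 listed genes 16 were found by name, and 0 of those tested passed an adjusted p of 0.05 at any time. Btg2, an antiproliferative gene induced by activity and stress, averaged 9.91 CPM in the 1 h controls and 156 CPM after SE (3.98 ± 0.65, adjusted p = 0.165), and was at 0.73 ± 0.24 at 8 h. Cdkn1a, the inhibitor p21, was at 0.98 ± 0.24 at 1 h (adjusted p = 0.698) and at 2.14 ± 0.30 at 8 h (6.26 to 27.5 CPM, adjusted p = 0.125). At 36 h the p57 gene Cdkn1c was at 1.95 ± 0.46 (adjusted p = 0.352). SE 36 h replicates 1 and 2 were rich in choroid plexus RNA and the late controls poor. The part of that RNA in the Cdkn1c value was not tested. These p-values are from edgeR's quasi-likelihood test.

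The stem cell list had members on both sides of 0. At 36 h 3 of 18 genes had an unadjusted p under 0.05 with SE higher and 0 with SE lower, beside 7.89% of all genes in either direction, and 0 passed after adjustment, in edgeR's quasi-likelihood test. Vim, an intermediate filament of stem cells and of reactive astrocytes, was nearest, at 42.9 CPM in controls and 81.5 CPM at 36 h (0.95 ± 0.12, adjusted p = 0.0687). Tnc, a matrix protein, was at 0.58 ± 0.12 and Id3, an inhibitor of differentiation, at 0.54 ± 0.15. The part of choroid plexus RNA in these 36 h values was not tested. Gfap, which stem cells share with astrocytes and which stood in the astrocyte list, rose by 1.37 ± 0.15 at 36 h. Its adjusted p was 0.0246 in edgeR's quasi-likelihood test. In that list it was the only 1 of 10 genes to pass, beside 0.0252% of all genes. Fabp7, a fatty acid binding protein of radial glia, was lower at 120 h, from 49.3 to 25.2 CPM (-0.95 ± 0.21, adjusted p = 0.273). Between the SE groups it was at -1.18 ± 0.15 at 120 h against 36 h (adjusted p = 0.0624). At 8 h the list moved both ways. There 3 of the 18 had an unadjusted p under 0.05 with SE higher and 4 with SE lower, in edgeR's quasi-likelihood test. Of all genes, 9.47% had one in either direction. Pax6 was at -0.95 ± 0.25 and Thbs4 at -1.02 ± 0.22 at that time.

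Of the 11 listed genes of intermediate progenitors and the granule cell lineage, 10 were tested. Hes6, a factor that promotes neuronal differentiation, averaged 8.33 CPM in late controls, 11.6 CPM at 36 h (0.50 ± 0.13, adjusted p = 0.385) and 12.4 CPM at 120 h (0.58 ± 0.12, adjusted p = 0.214), and its groups did not overlap. Neurod6, a relative of Neurod1 in pyramidal neurons, was lower at 8 h (-0.76 ± 0.16, adjusted p = 0.387), 36 h (-0.33 ± 0.08, adjusted p = 0.369) and 120 h (-0.37 ± 0.06, adjusted p = 0.144). All these p-values are from edgeR's quasi-likelihood test, and 0 of the 10 passed after adjustment at any of these times. Prox1, the factor of granule neuron identity, was at 0.21 ± 0.11 at 120 h.

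Of 14 immature neuron genes, 12 had a negative log2 fold change at 8 h, 13 a positive one at 36 h and 9 a positive one at 120 h. The medians were -0.20, 0.14 and 0.08. At 36 h 0 of the 14 had an unadjusted p under 0.05 in edgeR's quasi-likelihood test, beside 7.89% of all genes. Groups did not overlap there for 1 of the 14 with SE higher, beside 6% of all genes. The list summed to 1517, 1564 and 1965 CPM in the SE 36 h libraries, against 1573, 1697 and 1476 CPM in the late controls. At 8 h 3 of the 14 had an unadjusted p under 0.05, all lower, beside 5.52% of all genes, and among them Stmn1, a microtubule regulator, averaged 112 CPM in controls and 69.7 CPM after SE (-0.69 ± 0.15, adjusted p = 0.41). At 120 h 4 of the 14 did, all higher, beside 4.54% of all genes. These were Nrep (0.41 ± 0.11), Sox4 (0.33 ± 0.09), which is the nearest relative of Sox11, Marcksl1 (0.40 ± 0.11) and St8sia2 (0.50 ± 0.15), which adds polysialic acid to NCAM. None of the 14 passed an adjusted p of 0.05 at any time in edgeR's quasi-likelihood test.

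The GABAergic neuroblast list, which would mark tissue from the ventricle wall, had 0 of 8 genes past an adjusted p of 0.05. At 8 h 7 of the 8 had a negative log2 fold change, with a median of -0.26. At 120 h 7 of the 8 had a positive one, with a median of 0.37 beside 0.01 over all genes. Dlx5 was at 0.49 ± 0.21 at 120 h, and Dlx6os1 (-0.39 ± 0.10) was the only negative one. The list summed to 192, 305 and 180 CPM in SE 120 h replicates 1, 2 and 3, against 192, 219 and 220 CPM in the late controls. Groups did not overlap at 120 h for 0 of the 8 with SE higher and 1 with SE lower, beside 6.33% and 9.1% of all genes. Among niche signals and receptors, Bdnf, the activity-regulated neurotrophin, averaged 36.2 CPM in 8 h controls and 67.3 CPM after SE (0.88 ± 0.25, adjusted p = 0.471), and Vegfa was at -0.49 ± 0.08 at 120 h (adjusted p = 0.125). Of the 23 genes of that list 0 passed in edgeR's quasi-likelihood test at any time. In the mature granule cell list C1ql2, a synaptic organizer of mossy fibers, was at 0.59 ± 0.12 at 36 h, and 0 of 8 passed.

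**Figure D5:**
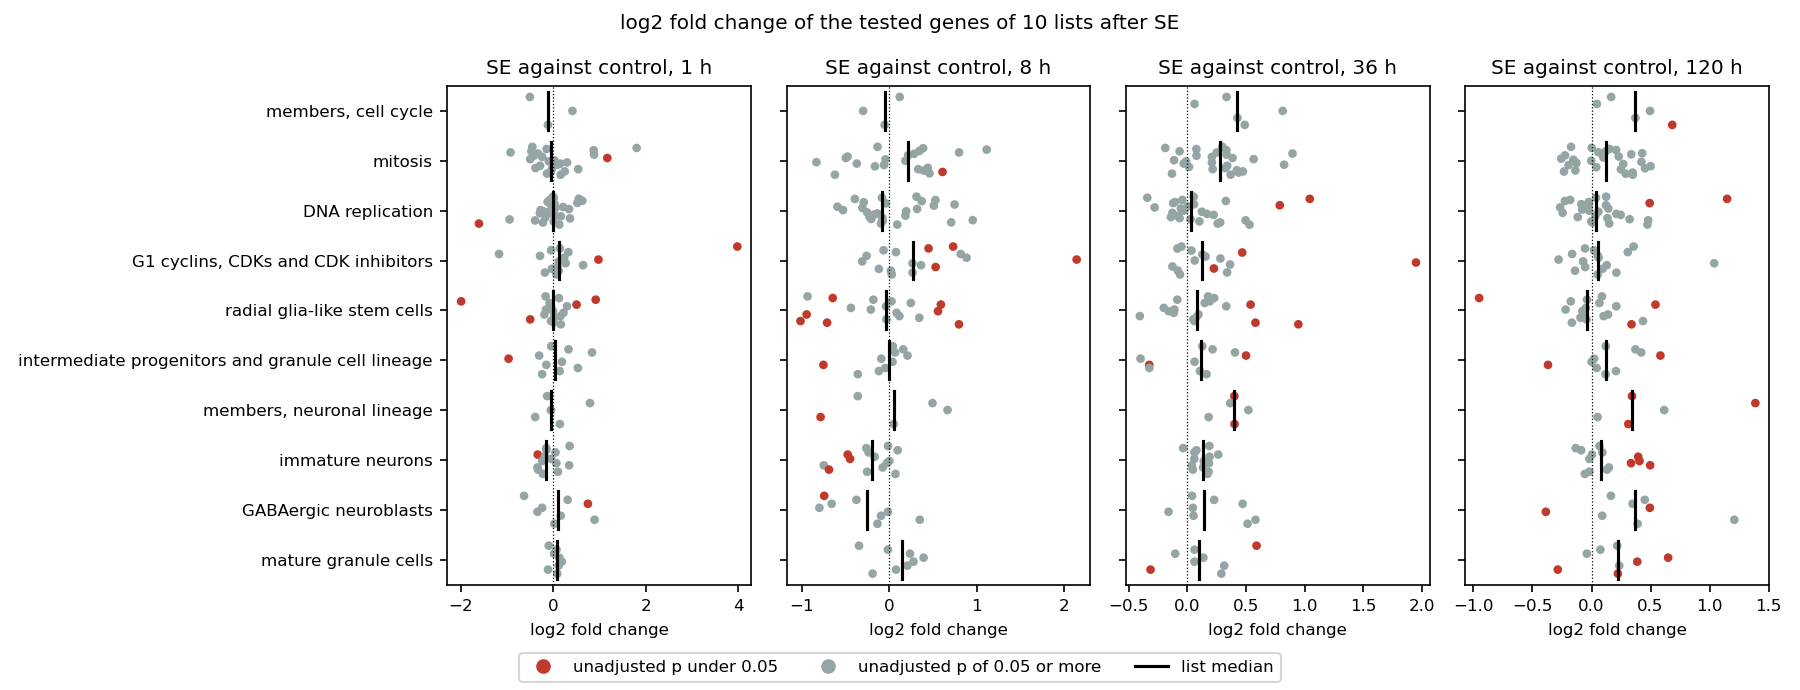
log2 fold change of SE against control (horizontal axis, scaled for each time) of every tested gene of 10 lists, with the list median as a black line and red for an unadjusted p under 0.05. The immature neuron median is -0.20 at 8 h and 0.14 at 36 h, and the mitosis median is 0.28 at 36 h.

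Other dividing cells share the cell cycle genes, so their markers are given beside them. The microglia list summed to 500 to 551 CPM in the late controls, 533 to 610 CPM at 36 h and 514 to 586 CPM at 120 h, with all 15 markers above 0 in all libraries. At 36 h 5 of its 15 genes had an unadjusted p under 0.05, all higher, beside 7.89% of all genes in either direction, among them C1qb (0.34 ± 0.09) and C1qc (0.43 ± 0.11). Oligodendrocyte precursor markers summed to 735 to 933 CPM in the late controls and to 720 to 794 CPM at 36 h, with Pdgfra and Cspg4 above 0 in all libraries. Of the 12 endothelial genes, 9 had a negative log2 fold change at 120 h, and 1 passed an adjusted p of 0.05, beside 0.0563% of all genes. That was Cldn5, lower by 0.87 ± 0.11 (adjusted p = 0.0461, edgeR's quasi-likelihood test). The part of these cells in the values of Top2a, Cdk1 and Mki67 was not tested.

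Across the 19 libraries Dcx was correlated with Sox11 (Pearson r of log2 CPM 0.867) and Neurod1 (0.834), and Top2a with Igfbpl1 (0.683). The lineage genes did not all go together. Igfbpl1 had r of -0.59 with Dcx, -0.527 with Sox11 and -0.613 with Neurod1, and Eomes had -0.026 with Dcx. These points share batch and time, and after group means were removed r was 0.602 for Dcx and Sox11, 0.366 for Dcx and Neurod1 and 0.403 for Top2a and Igfbpl1. Igfbpl1 then had -0.0798 with Dcx, 0.278 with Sox11 and 0.0416 with Neurod1, and Eomes had 0.335 with Dcx. Of 14282 genes with a mean of at least 1 CPM, the 5 nearest to Dcx were Lef1 (0.90), Pcdh15, Naf1, Sorbs2 and AI504432 (0.885). Those nearest to Top2a were Myom3 (0.787), Suclg2, Mapkap1, Cetn3 and Srsf5 (0.782), of which none is a gene of the cell cycle lists. These are descriptions over libraries that differ in batch.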

How the data were processed

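Poly(A) RNA of the left hippocampus was sequenced with a stranded Illumina kit. The authors aligned the reads to NCBIM37 with HISAT2 2.1.0 and deposited whole-number HTSeq counts per gene for 19 mRNA libraries. The strand setting of the counting is not given in the sources used here. Each library held 8503816 to 28465548 counts, and no intervals beyond the spread between libraries were computed. The small RNA tables were not used here.

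Groups came from the sample labels. SE and control were compared at each time with the libraries of that time in edgeR 4.0.16 (R 4.3.3) by the quasi-likelihood test, with TMM scaling, the filterByExpr filter and Benjamini-Hochberg adjustment over all genes tested, at a threshold of 0.05. The scripts were tested on simulated data. Gene names came from the GENCODE annotation of NCBIM37, which paired 33068 of 43629 identifiers with a symbol. Exon lengths came from the same annotation. Promoter windows came from RefSeq (GRCm38.p6). Alternatives were the likelihood ratio test, DESeq2 1.42.0, RLE scaling, no filter, all 19 libraries in 1 model, a replicate block, the choroid plexus score or the batch as a covariate, and leaving out libraries.

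The 10 genes and the lists were chosen with earlier results of these data known. Genes named beyond the 10 are those of the smallest p in a list, up to 4 per list and comparison, and the 5 genes most like Dcx and Top2a. Xist and the single marker genes given as checks of the libraries were chosen after their values were seen.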

Additional observations from a re-analysis of the deposited data

How the results depend on the processing

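None of the 10 genes passed an adjusted p of 0.05 in any alternative at 1 h, 36 h, 120 h or between the SE groups, and at 8 h 1 gene, Neurod1, passed with the batch as a covariate and without control replicate 1. Beyond leaving out a library, 338 of 361 alternative values of single genes kept their direction and their side of the threshold, 1 passed and 22 changed sign, and on leaving out 1 library 219 of 254 did, 1 passed and 34 changed sign. The number of genes called depended far more on the setting. In the order 1 h, 8 h, 36 h, 120 h and 120 h against 36 h, it was 13, 0, 4, 9 and 9 as reported. It was 69, 89, 125, 76 and 90 by the likelihood ratio test, 63, 95, 101, 144 and 97 by DESeq2, 328, 343, 141, 52 and 24 with no filter, and 55, 423, 10, 0 and 14 with all 19 libraries in 1 model. With the choroid plexus score in the model it was 32 at 36 h, 2 at 120 h and 20 between the SE groups, and with the batch 2111 at 8 h. Chosen after seeing the data, the choroid plexus-poor libraries alone gave 61 at 36 h and the low-Xist libraries alone 0 at 36 h and 0 at 120 h. Leaving out 1 library gave 3 to 53 genes at 1 h, 0 to 2065 at 8 h (2065 without control replicate 1), 0 to 469 at 36 h, 1 to 3 at 120 h and 1 to 11 between the SE groups, and 0 to 1 of the 10 genes at 8 h. The cause was not tested.

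Same-numbered libraries did not deviate together (correlations of -0.424 to 0.208). With so few libraries in a group, these correlations cannot settle whether the numbers pair mice, and the main tests were unpaired. With the replicate number as a block, 42, 31, 12, 1 and 0 genes were called, 0 of them among the 10. The block turned Igfbpl1 at 1 h to 0.0786, and Top2a to 0.10 and Eomes to -0.49 at 8 h.

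Other signs changed as follows, on the log2 scale. The choroid plexus covariate gave Top2a 0.52, Ccna2 0.33, Dcx 0.14 and Eomes -0.0525 at 1 h, Top2a 0.43 at 8 h, Ccnb1 -0.29, Eomes -0.33 and Neurod1 -0.11 at 36 h, and Ccnb1 -0.37 and Neurod1 -0.0618 at 120 h. The batch covariate gave Mki67 0.14 and Top2a 0.0912 at 8 h. Choroid plexus-poor libraries alone gave Ccnb1 -0.36, Eomes -0.48 and Neurod1 -0.15 at 36 h. Low-Xist libraries alone gave Ccnb1 -0.27 and Neurod1 -0.12 at 36 h and Ccnb1 -0.72 and Neurod1 -0.36 at 120 h. Leaving out 1 library gave -0.51 to 0.43 for Top2a, -0.28 to 0.0235 for Dcx and -0.39 to 0.40 for Igfbpl1 at 1 h. At 8 h it gave -0.58 to 0.14 for Mki67, -0.49 to 0.22 for Top2a, -0.10 to 0.37 for Ccna2, -0.0739 to 0.18 for Sox11 and -3.13 to 1.28 for Eomes. At 36 h it gave -0.44 to 0.28 for Ccnb1 and -0.10 to 0.94 for Eomes. At 120 h it gave -0.0731 to 0.37 for Ccna2, -0.40 to 0.28 for Ccnb1 and -0.0792 to 0.28 for Neurod1. Between the SE groups it gave -0.23 to 0.20 for Mki67, -0.0851 to 0.52 for Top2a, -0.53 to 0.0419 for Cdk1, -0.41 to 0.0474 for Ccna2, -0.13 to 0.0701 for Dcx, -0.26 to 0.10 for Neurod1 and -0.13 to 0.32 for Igfbpl1. Counts of 0 to 30 limit what Cdk1 and Ccnb1 can show.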
